A study of Mus musculus with 136 samples.

Results

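Kdm6b, also known as Jmjd3, was followed as a single gene, 1 of the 15196 genes in the deposited expression table, taken by its symbol and read in all 136 libraries. It was chosen by its RPKM values in Nfkb1-/- against wild-type cells of these same data, so its levels in that series are given as a description without a test. Kdm6b encodes a demethylase that removes methyl groups from lysine 27 of histone H3, the mark that the Polycomb repressive complex places on silent genes. In macrophages the gene is known to be switched on within the first hours of a microbial stimulus through Toll-like receptors, and it has also been studied in alternative activation of macrophages. The table carries it as NM_001017426 on chromosome 11 of the mouse build mm9, from 69212015 to 69229696, a span of 17681 bp. No other gene of the table overlaps that span, but the reference annotation lists an antisense gene, Kdm6bos, over it. Whether the counting used strand is not given in the sources used here, so reads of Kdm6b and Kdm6bos cannot be told apart.

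The study stimulated mouse bone-marrow-derived macrophages, grown from marrow with the growth factor M-CSF, with lipid A, which is the portion of endotoxin sensed by Toll-like receptor 4, or with the cytokine TNFa. RNA attached to chromatin, which is rich in transcripts still being made, was sequenced in 113 libraries, and 23 libraries are labelled as polyA RNA. Of the chromatin libraries, 4 series compared knockout with wild-type cells at 0, 0.5, 1, 2 and 6 h of lipid A. Cells labelled Nfkb1-/- or Nfkbid-/- had 3 replicates per time, as did their wild types, and cells labelled Nfkbiz-/- or Bcl3-/- had 2, as did theirs. Nfkb1 encodes the NF-kB subunit p50 and its precursor, and Nfkbiz, Bcl3 and Nfkbid encode nuclear IkB proteins that bind NF-kB subunits. A further 8 chromatin libraries came from wild-type cells pre-treated with an ERK inhibitor (ERKi) or with its solvent DMSO. The labels do not name the inhibitor. These cells were then given lipid A for 0, 15, 30 or 60 min, so the 0 min libraries also came from pre-treated cells. There were also 5 chromatin libraries of wild-type cells given TNFa for 0 to 6 h. The polyA libraries were a lipid A and TNFa time course in wild-type cells, cells called J2 in the labels (Nfkb1-/-, Nfkb2-/- or Nfkb1-/- or WT, at 0 and 2 h of lipid A), and cells overexpressing IkBz (IkBz OE, labelled as wild type in genotype) beside a Control. The labels do not say that replicates came from separate animals, so p-values measure only the spread between these samples, which may be technical.

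Sequencing depth recovered from the values of the chromatin libraries was 7856000 to 45318000 reads (median 28786000), and 33 to 15115 reads per library lay on Kdm6b. The 5 macrophage markers in the table reached 1 RPKM (reads per kilobase of gene, scaled to sequencing depth) in every group of the 4 knockout series and the ERKi series. No marker of other blood or stromal cells reached it, except in the Nfkbid series, where 4 of 6 neutrophil and 1 of 3 stromal markers did in Nfkbid-/- cells, and 6 of 6 and 2 of 3 in wild-type cells. Their part in the Kdm6b values of that series was not tested. Over its whole span, Nfkb1 had 0.703 to 2.57 RPKM in libraries labelled Nfkb1-/- and 1.33 to 2.29 RPKM in wild-type libraries at 0 h. Bcl3 was higher in libraries labelled Bcl3-/-, at 8.79 to 8.89 RPKM, against 2.20 to 2.66 RPKM in wild-type libraries at 0 h. The labels do not say which part of either gene was removed, so these values do not check the labels. The RNA of Nfkbiz and of Nfkbid was not used here. In bulk samples like these, fewer cells of a type and less RNA per cell cannot be told apart.

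Kdm6b rose within 0.5 h of lipid A in wild-type cells. In the Nfkbiz and Bcl3 series it stayed high at 1 h and was at or below its starting level at 2 h. In the Nfkbiz series its level at 0.5 h was 11.1 and 15.6 RPKM, against 0.452 and 0.539 RPKM at 0 h, and at 1 h it was 8.36 and 12.9 RPKM. On the log2(RPKM + 0.5) scale these differences from 0 h were 3.78 ± 0.22 and 3.45 ± 0.22 (SE, limma, adjusted p 4.0e-08 and 1.2e-07, n = 2 each). In that series 6.39% of the 4885 genes tested were called higher at 0.5 h and 7.68% at 1 h, a call being an adjusted p under 0.05 with at least a 2-fold difference, and Kdm6b ranked 27 and 34 from the top. In the Bcl3 series wild-type cells had 17.9 and 13.3 RPKM at 0.5 h and 8.72 and 8.86 RPKM at 1 h, against 0.782 and 0.743 RPKM at 0 h. The differences were 3.66 ± 0.24 at 0.5 h and 2.88 ± 0.24 at 1 h (SE, limma, adjusted p 2.1e-07 and 1.2e-06, n = 2 each), where 6.62% and 7.59% of 4740 genes were called higher. In both series all stimulated libraries at these times lay far above those at 0 h. The median gene moved by -0.35 to -0.61 in these 4 comparisons, so Kdm6b rose while the typical gene was lower than at 0 h.

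At 2 h the Nfkbiz-series wild type had 0.380 and 0.538 RPKM, which overlapped its 0 h values (difference -0.06 ± 0.22, limma, adjusted p 0.827, n = 2 each). In the Bcl3 series the 2 h wild type had 0.323 and 0.323 RPKM, below both 0 h libraries. That difference was -0.62 ± 0.24 (limma, adjusted p 0.047), short of the 2-fold size a call needs, while the median gene stood at -0.48. At 6 h neither series passed the test against 0 h (-0.37 ± 0.22 and -0.34 ± 0.24, limma, adjusted p 0.158 and 0.316). Of all genes, 24.3% and 23.6% were called lower at 2 h in the Nfkbiz and Bcl3 series, and 16.6% and 11.9% at 6 h. From 1 h to 2 h the wild-type mean dropped to 4.32% of its 1 h level in the Nfkbiz series and to 3.67% in the Bcl3 series.

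The Nfkbid series held the widest spread of libraries around their group means, for Kdm6b (SD 0.925 on the log2 scale) and over all genes. The median SD over all genes was 0.74, against 0.19 to 0.41 in the other series. Its replicates were high in Kdm6b at different times. In wild-type cells Kdm6b had 7.72, 15.9 and 15.7 RPKM at 0.5 h and 21.9, 1.74 and 12.1 RPKM at 1 h in replicates 1, 2 and 3, against 0.609, 0.906 and 0.421 RPKM at 0 h. Replicate 1 was highest at 1 h, and replicate 2 was already low by then. At 2 h the wild-type replicates had 1.92, 0.221 and 1.05 RPKM, so replicates 1 and 3 were still above and replicate 2 below their own 0 h level, and the difference did not pass (0.30 ± 0.74, SE, limma, adjusted p 0.891, n = 3 each). Both times were called higher (3.52 ± 0.74 and 2.93 ± 0.74, SE, limma, adjusted p 0.0454 and 0.04, n = 3 each), where 0.168% and 0.671% of 5367 genes were. Without wild-type replicate 3 neither call held (3.21 and 2.50, adjusted p 1.00 and 0.729), and the 0.5 h call was also lost without wild-type replicate 2 (adjusted p 0.359), knockout replicate 2 (0.0749) or knockout replicate 3 (0.198). The 1 h call was lost without any 1 wild-type replicate, or without knockout replicate 2 (0.0651) or 3 (0.137), and without wild-type replicate 1 its value was 2.23. Replicate 1 also differed in Malat1, a nuclear non-coding RNA, at 6.92 to 19.4 RPKM in its 10 libraries, against at least 823 RPKM in those of replicate 2. With replicate 1 of both genotypes left out, the differences at 0.5 and 1 h were 3.84 and 2.23 (limma, adjusted p 0.00103 and 0.0265). With the replicate number as a block over the series, all 3 replicates gave 3.52 and 2.93 with adjusted p-values of 0.000743 and 0.00195 in limma.

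**Figure D1:**
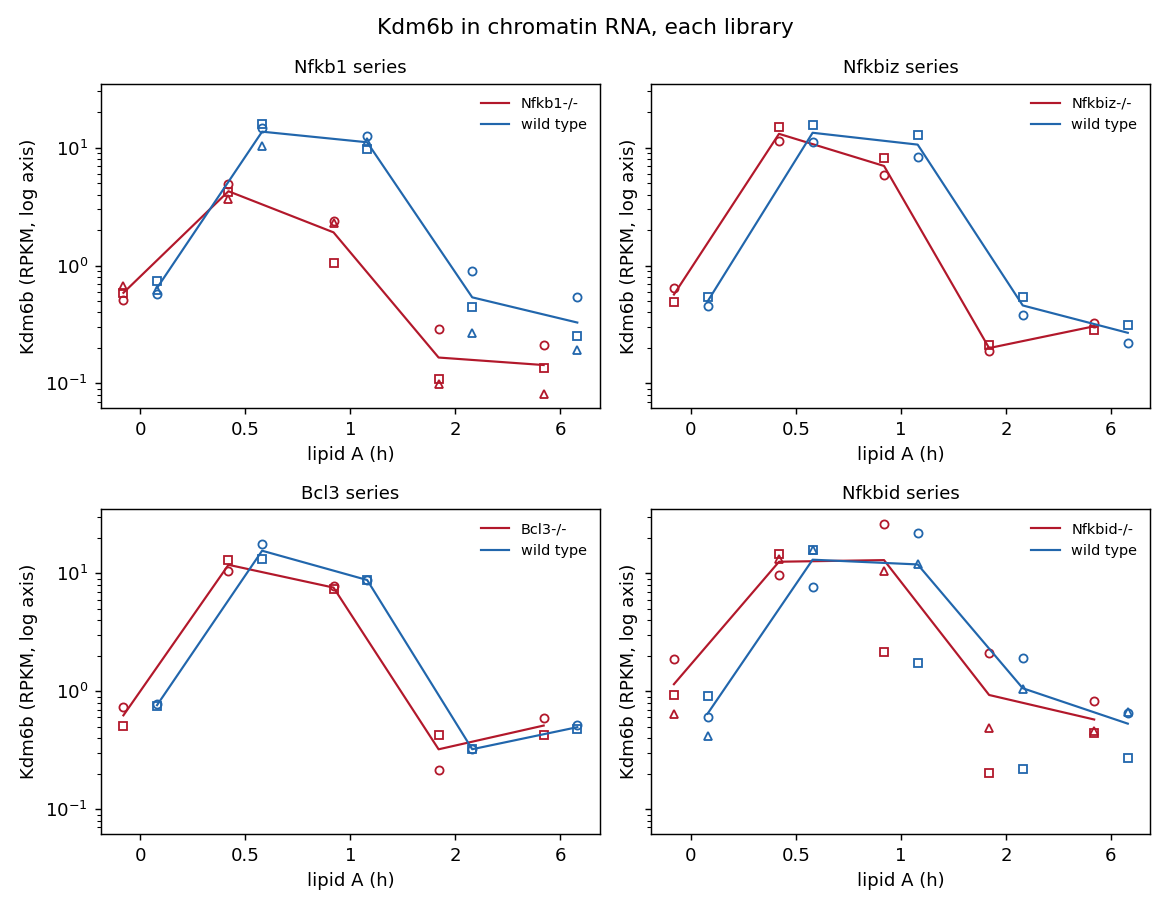
Kdm6b in RPKM (log axis) at 0, 0.5, 1, 2 and 6 h of lipid A in the 4 knockout series, knockout in red to the left of wild type in blue; each open mark is 1 library (circle, square and triangle for replicates 1, 2 and 3) and lines join group means. The Nfkb1-/- libraries lie at 3.67 to 4.90 RPKM at 0.5 h and 1.05 to 2.41 RPKM at 1 h, below all 3 wild-type libraries of their series at each of these times.

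In cells labelled Nfkb1-/- the rise of Kdm6b was smaller than in their wild type, while the levels before lipid A overlapped. At 0 h the libraries labelled Nfkb1-/- had 0.512, 0.584 and 0.666 RPKM, against 0.572, 0.743 and 0.621 RPKM in wild-type libraries, and the ranges overlapped. At 0.5 h Nfkb1-/- libraries had 4.90, 4.24 and 3.67 RPKM, against 14.7, 15.9 and 10.4 RPKM in wild-type libraries. The knockout mean was 31.2% of the wild-type mean (log2 difference -1.56), the second lowest among 4523 genes. At 1 h Nfkb1-/- libraries had 2.41, 1.05 and 2.28 RPKM, against 12.6, 9.65 and 11.1 RPKM in wild-type libraries. Here the knockout mean was 17.2% of the wild-type mean (log2 difference -2.31), rank 6 from the lowest. At both times each knockout library lay below each wild-type library.

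The gap ran on after the peak at much lower levels. At 2 h Nfkb1-/- libraries had 0.288, 0.110 and 0.0998 RPKM, against 0.898, 0.448 and 0.267 RPKM in wild-type libraries. At 6 h they had 0.213, 0.135 and 0.0818 RPKM, against 0.543, 0.252 and 0.191 RPKM. The ranges overlapped at both times, although the knockout library was the lower in 3 of 3 pairs of the same replicate number. The means were 30.9% and 43.6% of wild type, and the log2 differences were -0.61 and -0.35 because the pseudocount weighs on such low values. Across all genes of that series, 0.0663%, 0.597%, 0.376% and 0.221% were called lower in Nfkb1-/- cells at 0.5, 1, 2 and 6 h, and 0.0% at 0 h, where an unadjusted p under 0.05 with a 2-fold difference was reached by 1 gene in each direction (limma). Kdm6b had been singled out from this contrast, so its place among them is not a finding.

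Split by step, the knockout mean at 0.5 h was 7.27-fold its 0 h mean, against 21.2-fold in wild type (5.51- to 9.57-fold per replicate in knockout, 16.8- to 25.7-fold in wild type). From 0.5 to 1 h the knockout mean dropped to 44.8%, while wild type kept 81.3%. Matched by number, replicates 1, 2 and 3 kept 0.492, 0.248 and 0.620 of their 0.5 h level in Nfkb1-/- cells, and 0.859, 0.607 and 1.06 in wild-type cells. The ratios of replicate 3 in knockout and replicate 2 in wild type lay close together, so the groups overlapped at this step. Egr1, an immediate-early transcription factor that was singled out from the same contrast, had 0.981, 1.11 and 1.08 RPKM in Nfkb1-/- libraries at 0.5 h, against 14.0, 11.8 and 10.2 RPKM in wild-type libraries. At 1 h both genotypes were under 1 RPKM for Egr1, at which time Kdm6b was still near its peak in wild type.

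No call was made for Kdm6b in the other 3 knockouts. In Nfkbiz-/- cells the 0.5 h levels were 11.3 and 14.9 RPKM, against 11.1 and 15.6 RPKM in wild-type cells (-0.02 ± 0.22, SE, limma, adjusted p 0.999, n = 2 each). At 1 h they were 5.86 and 8.13 RPKM, against 8.36 and 12.9 RPKM, and at 2 h 0.187 and 0.212 RPKM, against 0.380 and 0.538 RPKM. Both Nfkbiz-/- libraries lay below both wild-type libraries at 1 and 2 h, at 65.9% and 43.5% of the wild-type mean. The differences were -0.55 ± 0.22 and -0.45 ± 0.22 (SE, unadjusted p 0.0245 and 0.0597, limma, adjusted p 0.342 and 0.353), and neither passed. Paired by replicate number at each time, the same differences had adjusted p-values of 0.0314 and 0.0389 in limma, while both stayed under 2-fold on this scale and were not called. At 1 and 2 h, 0.553% and 1.19% of the 4885 genes were called lower in Nfkbiz-/- cells. At 0 and 6 h the Nfkbiz-/- values overlapped wild type (0.10 and 0.07, SE 0.22, limma, adjusted p 1.00 and 0.842), and 5.47% of genes were called at 6 h. At 0 and 0.5 h 0.0% of genes was called, while an unadjusted p under 0.05 with a 2-fold difference was reached by 28 and 13 genes.

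Libraries labelled Bcl3-/- had 10.6 and 13.1 RPKM at 0.5 h, against 17.9 and 13.3 RPKM in wild-type libraries, and 7.86 and 7.31 RPKM at 1 h, against 8.72 and 8.86 RPKM. They lay below both wild-type libraries at 0, 0.5 and 1 h, with differences of -0.17, -0.38 and -0.20 (each ± 0.24 SE), and none passed (limma, adjusted p 1.00 each). At 2 and 6 h the values overlapped (-0.01 and 0.02). In this series 0.0% of 4740 genes was called between genotypes at any time, while an unadjusted p under 0.05 with a 2-fold difference was reached by 0 to 9 genes downward and 2 to 16 upward.

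In Nfkbid-/- cells Kdm6b followed its same-numbered wild type rather than the other knockout replicates. At 0.5 h the knockout replicates had 9.76, 14.7 and 13.2 RPKM, against 7.72, 15.9 and 15.7 RPKM in wild type. At 1 h they had 26.2, 2.15 and 10.6 RPKM, against 21.9, 1.74 and 12.1 RPKM. The ranges overlapped at every time, and the differences ran from -0.19 at 2 h to 0.48 at 0 h (SE 0.74, limma, adjusted p 1.00 each, n = 3 each). That SE holds the spread between replicate numbers, since the fit did not pair them, so a lack of calls here does not show equal levels. No gene of the 5367 tested (0.0%) was called in these comparisons, and an unadjusted p under 0.05 with a 2-fold difference was reached by at most 1. The 0 h value rests on knockout replicate 1 at 1.89 RPKM, against 0.609 RPKM in its wild type. Within pairs of replicates 1, 2 and 3, knockout minus wild type was 1.11, 0.017 and 0.30 on the log2 scale at 0 h. The pairs stood at 0.32, -0.11 and -0.23 at 0.5 h, and at 0.25, 0.24 and -0.19 at 1 h. They also differed in sign at 2 h (0.11, -0.035 and -0.65) and at 6 h (0.20, 0.29 and -0.28).

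Set in order, the 40 group means of the 4 series ran from 15.6 RPKM in Bcl3-series wild type at 0.5 h to 0.143 RPKM in Nfkb1-/- cells at 6 h. Ranks 1 to 14 were the 0.5 and 1 h groups of every genotype other than Nfkb1-/-. Neighbours in that stretch overlapped in their library ranges, apart from Bcl3-series wild type over Bcl3-/- at 1 h. Nfkb1-/- cells at 0.5 h (4.27 ± 0.614 RPKM, SD, n = 3) came at rank 15, below all libraries of rank 14 and above all of rank 16, Nfkb1-/- cells at 1 h (1.91 ± 0.749 RPKM, SD, n = 3). The groups at 0, 2 and 6 h filled the ranks below, and their neighbours overlapped, except at rank 37, Nfkbiz-series wild type at 6 h, over rank 38, Nfkbiz-/- at 2 h. Over the 10 wild-type libraries of a time, Kdm6b had 0.421 to 0.906 RPKM at 0 h (median 0.615), 7.72 to 17.9 RPKM at 0.5 h (median 15.1) and 1.74 to 21.9 RPKM at 1 h (median 10.4).

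With the ERK inhibitor, Kdm6b began to rise as in DMSO but reached a lower level at 30 min and dropped further by 60 min. ERK is the mitogen-activated kinase that acts below the kinase Tpl2 in lipid A signalling, and Tpl2 is held by the p50 precursor. Each condition had 1 library, so the values have no replicate check and their intervals cover counting error only. At 0 and 15 min ERKi cells had 0.454 and 3.71 RPKM, against 0.382 and 4.01 RPKM in DMSO cells. At 30 min Kdm6b was 7.49 RPKM in ERKi cells and 13.5 RPKM in DMSO cells, from 3023 and 5218 reads. The ratio was 0.556 (95% exact interval 0.532 to 0.582). At 60 min Kdm6b was 2.41 RPKM in ERKi cells and 9.92 RPKM in DMSO cells, a ratio of 0.242 (0.227 to 0.259) from 1092 and 4682 reads. The ratio at 15 min was 0.925 (0.862 to 0.993), far nearer to equal.

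At 60 min the ERKi difference of Kdm6b was the fifth lowest of 3409 expressed genes (-1.84 on the log2 scale), of which 3.43% were at least 2-fold lower. At 30 min it was short of 2-fold (-0.81, rank 104), and 1.7% of genes were past it. From 30 to 60 min Kdm6b dropped to 32.1% in ERKi cells and to 73.7% in DMSO cells. Beside these stand the values from Nfkb1-/- cells, 44.8% from 0.5 to 1 h, against 81.3% in their wild type. The ERKi and Nfkb1 experiments differ in libraries and controls, and no test set them against each other.

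Among immediate-early genes, which code mostly for transcription factors switched on without new protein, 14 of 14 expressed members were below DMSO at 15 min in ERKi cells (median -0.74, against -0.01 over all genes). Of these, 4 were at least 2-fold lower, Egr1, Fos, Ier2 and Btg2, where 1.41% of all genes were. At 0 min, 9 of 14 were already below DMSO (median -0.12, against 0.07 over all genes). Fos was then past 2-fold (-1.35), where 0.704% of all genes were. At 30 min 12 of 14 were below DMSO (median -0.55), and the same 4 genes were at least 2-fold lower. By 60 min 10 of 14 were below (median -0.41, against -0.05 over all genes). Egr1 alone was then at least 2-fold lower, where 3.43% of all genes were, and Atf3 was at least 2-fold higher (1.02), where 2.93% were. Egr1 had 1.97 RPKM in ERKi cells and 51.6 RPKM in DMSO cells at 15 min, whereas Kdm6b hardly differed then. ERK feedback genes, which dampen the pathway, were all 5 below DMSO at 60 min (median -1.39, against -0.05 over all genes). Dusp4, Dusp5 and Phlda1 were past 2-fold, where 3.43% of all genes were. All 5 were also below DMSO at 0 min, before lipid A (median -0.37, against 0.07), with Dusp6 past 2-fold. Of the 9 other JmjC demethylases expressed, relatives of Kdm6b that act on other histone lysines or other substrates, 1 was at least 2-fold lower at 60 min, Kdm7a, and the list's median was 0.05. Of 3 Polycomb repressive complex members and 4 members of the H3K4 methyltransferase complexes, 0 passed 2-fold at any time.

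In polyA RNA, with 1 library per condition, Kdm6b was high for a shorter time with TNFa than with lipid A. In chromatin RNA it had 0.226, 2.69, 0.436, 0.191 and 0.192 RPKM at 0, 0.5, 1, 2 and 6 h of TNFa, with 1 library per time. The 0.5 h level was 11.9-fold that at 0 h (95% exact interval 9.43 to 15.2), where 7.54% of 4391 genes were at least 2-fold higher, and by 1 h it had dropped to 16.2% of the 0.5 h level. The wild types of the Nfkbiz and Bcl3 series kept 79.3% and 56.4% over the same step of lipid A, in other libraries. In the Nfkbid wild type, replicates 1, 2 and 3 stood at 2.83, 0.110 and 0.775 of their 0.5 h level. Replicate 2 there dropped further than the TNFa library. In polyA RNA, TNFa gave 14.1, 23.8, 3.33 and 0.618 RPKM at 0.5, 1, 2 and 6 h and lipid A gave 11.8, 89.6, 31.7 and 3.70 RPKM, against 1.45 RPKM at 0 h. The TNFa to lipid A ratios at these times were 1.19, 0.266, 0.105 and 0.167. At 2 h 4.38% of 9325 genes were at least 2-fold lower with TNFa than with lipid A, and Kdm6b ranked 72 from the lowest.

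PolyA Kdm6b was highest at 1 h under either stimulus, at 62.0-fold its 0 h level with lipid A and 16.5-fold with TNFa, where 4.18% and 2.57% of genes were at least 2-fold higher. Chromatin Kdm6b was highest at 0.5 h with TNFa and in the wild-type means of the 4 series with lipid A. Some replicates were highest at 1 h, such as both genotypes of Nfkbid replicate 1, which was also low in Malat1. At 2 h of lipid A polyA Kdm6b was still 21.9-fold its 0 h level, a time at which chromatin Kdm6b of the Nfkbiz and Bcl3 wild types had returned to or below its start. Levels of the 2 kinds of RNA are not compared directly, since chromatin values are per length of the whole gene span and how polyA values were scaled is not given in the sources used here.

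**Figure D2:**
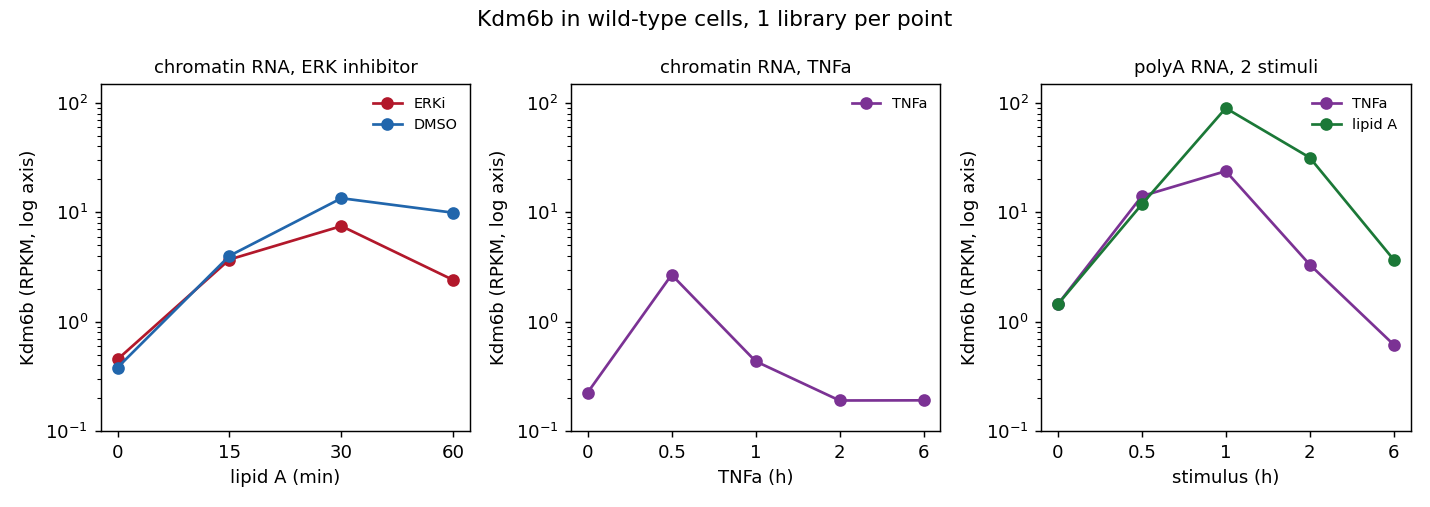
Kdm6b in RPKM (log axis) in wild-type cells with 1 library per point: chromatin RNA at 0 to 60 min of lipid A after pre-treatment with ERKi (red) or DMSO (blue), chromatin RNA at 0 to 6 h of TNFa, and polyA RNA at 0 to 6 h of TNFa (purple) or lipid A (green), which share the 0 h library. ERKi and DMSO part after 15 min, and in polyA RNA TNFa and lipid A part after 0.5 h.

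In J2 cells the polyA level of Kdm6b at 2 h of lipid A was 4.13 and 2.60 RPKM in Nfkb1-/-, Nfkb2-/- cells and 3.94 RPKM in Nfkb1-/- cells, against 4.42 RPKM in WT cells. At 0 h the values were 1.34 and 1.37 RPKM, 1.52 RPKM and, in WT, 1.23 RPKM. The 2 h over 0 h ratio was 2.48 in the double knockout, 2.60 in Nfkb1-/- and 3.58 in WT. At 2 h the difference between the double knockout and WT was -0.38 ± 0.33 (SE, limma, adjusted p 1.00), with 2 libraries against 1, and the lone WT library is assumed to vary like those of the double knockout. Nfkb1-/- stood at -0.15 from WT in the same fit, with 1 library each, so its p-value is not given. In this fit 0.0% of 6620 genes was called, while an unadjusted p under 0.05 with a 2-fold difference was reached by 31 to 162 genes downward and 33 to 83 upward. J2 cells were sampled at 2 h only, past the times at which chromatin Kdm6b was high in the knockout series.

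With IkBz overexpression Kdm6b was 1.11 RPKM at 0 h, 4.61 RPKM at 2 h of TNFa and 10.1 RPKM at 2 h of lipid A, against 1.03, 4.02 and 6.43 RPKM in Control cells. The IkBz OE to Control ratio was 1.08, 1.15 and 1.56, with 1 library each. The lipid A ratio did not reach 2-fold, which 1.95% of 6510 genes did in the higher direction.

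No tested member of the lists of other histone-modifying genes was called higher with Kdm6b at 0.5 or 1 h in the Nfkbiz or Bcl3 wild type. Of the list of H3K27 demethylases, only Kdm6b was analysed here. Of 11 other JmjC demethylases tested, 1 was called lower in the Nfkbiz and 3 in the Bcl3 wild type, at 0.5 h and again at 1 h. At 0.5 h Jmjd6, which encodes a lysyl hydroxylase, fell in both (-1.35 and -1.44, limma, adjusted p 6.8e-06 and 0.00837), and at 1 h Jmjd8 did (-1.01 and -1.34, limma, adjusted p 0.00413 and 0.0329). The list's median at 0.5 h was -0.63 in the Nfkbiz and -0.74 in the Bcl3 series, where the median of all genes was -0.51 and -0.61, and 20.7% and 25.9% of all genes were called lower (18.7% and 26.2% at 1 h). Of 5 members of the Polycomb repressive complex 2, Ezh1, a methyltransferase that places the mark Kdm6b removes, fell at 0.5 h in both (-1.28 and -1.56, limma, adjusted p 7.4e-06 and 0.00043), and Rbbp4, a histone-binding subunit, in the Bcl3 series (-1.27, limma, adjusted p 0.0022). At 1 h Rbbp4 and Eed were called lower in the Bcl3 series. Of 5 members of the H3K4 methyltransferase complexes, 0 were called at 0.5 h in either series, and at 1 h Kmt2d was called lower in the Bcl3 series. Of the genes of alternative macrophage activation, 2 were tested in these 2 series, and at 1 h they moved in opposite directions. The chemokine gene Ccl22 rose (2.72 and 1.88, limma, adjusted p 0.00315 and 0.00281), and Mrc1, which encodes the mannose receptor, fell (-1.90 and -1.69, limma, adjusted p 0.0138 and 0.0193).

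Most immediate-early genes rose with Kdm6b at 0.5 h. Of 14 tested, 11 were called higher at 0.5 h in the Nfkbiz and the Bcl3 wild type, where 6.39% and 6.62% of all genes were. At 1 h 5 and 6 were, beside 7.68% and 7.59% of all genes, while Jun, an AP-1 subunit, fell in both (-2.06 and -1.66, limma, adjusted p 0.0013 and 0.00267). Of 6 ERK feedback genes, 3 were called higher at both times in both series, Dusp5, Phlda1 and Dusp4, beside the same shares of all genes. Dusp6, another ERK phosphatase, fell at 0.5 h in the Nfkbiz series (-2.10, limma, adjusted p 7.9e-05) and at 1 h in both (-2.96 and -1.73, limma, adjusted p 5.5e-06 and 0.0378). Dusp5, an ERK phosphatase, rose by 3.92 and 4.29 at 0.5 h (limma, adjusted p 2.7e-06 and 6.6e-07), and Kdm6b by 3.78 and 3.66 on the same scale. Between genotypes, 0 members of these lists were called in the Nfkbiz, Bcl3 or Nfkbid series. The share of all genes called was 0.0% throughout the Bcl3 and Nfkbid series, so the lists could not stand out there. For the Nfkbiz series that share, counting either direction, ran from 0.0% before lipid A to 5.47% by 6 h. A count of 0 in such short lists therefore says little about them. In the Nfkb1 series Fos was called lower in Nfkb1-/- cells at 6 h, where 0.221% of all genes were. Egr1 stood at -2.99 at 0.5 h, but it had been singled out from this contrast, so its value is only a description.

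Over the 40 group means, with each series centred on its own mean, the profile most like that of Kdm6b was that of Plaur, the receptor of the protease urokinase (Pearson r 0.98, n = 40 means, among 4076 genes). Next came Abhd17c, which removes palmitate from proteins (0.96), Rhof, a small GTPase (0.95), Baz1a, a chromatin remodelling subunit (0.94), Agpat4, an acyltransferase of lipid synthesis (0.94), Fam133b (0.94), Dusp4, a nuclear phosphatase of mitogen-activated kinases (0.94), and Lrrc8b, a subunit of a volume-regulated anion channel (0.94). These means share libraries and time points, so the correlations are descriptions. By rank correlation only Plaur and Lrrc8b were again among the top 8, while 7 of the 8 stayed without the Nfkbid series.

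At 0.5 h in the Nfkb1 series, Plaur had 6.94, 7.84 and 10.2 RPKM in Nfkb1-/- libraries, against 13.2, 15.3 and 14.1 RPKM in wild-type libraries, and the ranges did not overlap. Dusp4 had 20.9, 12.6 and 8.56 RPKM in Nfkb1-/- libraries at that time, against 32.6, 18.3 and 14.4 RPKM, with overlap. The ranges of Rhof overlapped at 0.5 h, but at 1 h it had 0.492, 0.765 and 1.65 RPKM in Nfkb1-/- libraries, against 1.79, 3.21 and 2.82 RPKM in wild-type libraries. These genes were picked for a profile that includes this contrast, so nothing is tested. In the ERKi series, which the choice did not use, the ERKi to DMSO ratio at 60 min was 0.144 for Plaur, 0.197 for Dusp4 and 0.238 for Rhof, beside 0.242 for Kdm6b. It was 0.573 to 0.952 for the other 5, so the profile over the 40 means went with a wide range of values under ERKi. At 0 min Plaur was already lower in ERKi than in DMSO cells (0.375 against 0.751 RPKM), as was Dusp4 (0.0148 against 0.166 RPKM). Kdm6b was not (0.454 against 0.382 RPKM). Rhof had ratios of 1.84 and 1.61 at 15 and 30 min, when Kdm6b had 0.925 and 0.556.

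**Figure D3:**
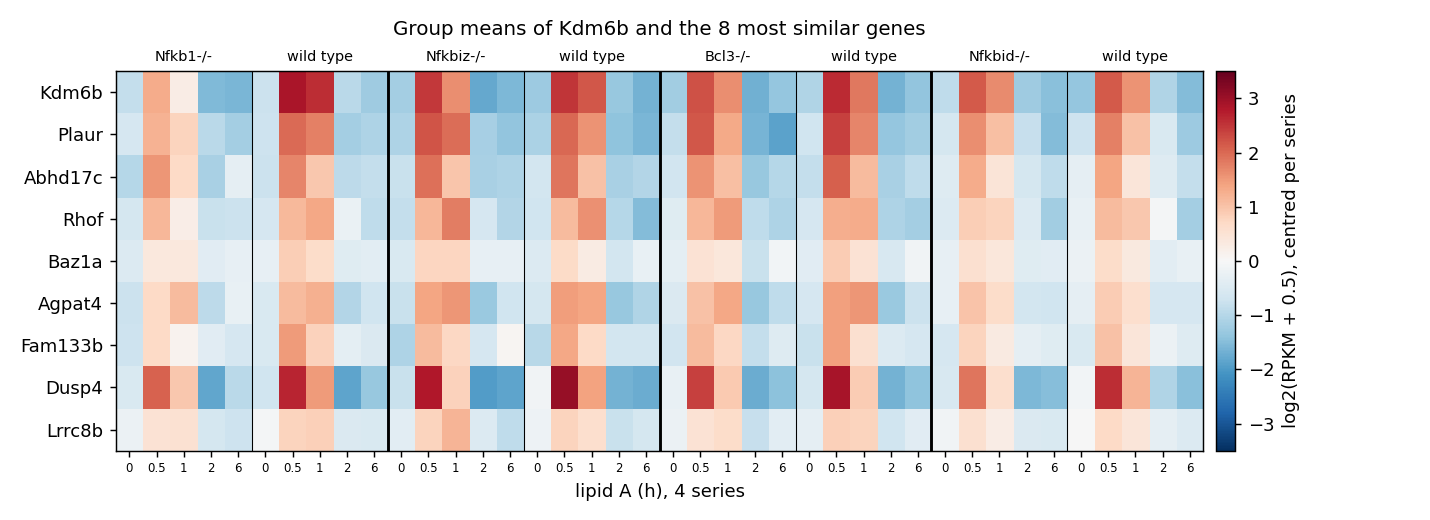
Group means of log2(RPKM + 0.5), centred per series (colour scale), for Kdm6b and the 8 genes with the highest Pearson correlation to it (rows), over 0, 0.5, 1, 2 and 6 h of lipid A in knockout and wild-type cells of the 4 series (columns). Kdm6b is high at 0.5 and 1 h in every group other than Nfkb1-/- cells, where it is paler at 0.5 h and only slightly above its series mean at 1 h. Plaur has the profile most like it, at r 0.98.

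The promoters of the similar genes are shown because these genes moved with Kdm6b. RefSeq windows (GRCm38.p6) from 250 bases before to 50 bases after the start were matched by symbol for 6 of the 8, all but Baz1a and Dusp4, and not for Kdm6b. Windows were searched on both strands for the AP-1 motif TGANTCA, the CRE TGACGTCA, and the kB and CArG consensus motifs. AP-1 was found in 3 of 6 windows, those of Plaur, Agpat4 and Lrrc8b, and in 7.81% of all 32851 windows. The kB motif was found in 1 of 6, Lrrc8b, and in 4.51% of all windows. CRE and CArG, with 1.79% and 1.63% of all windows, were in 0 of 6. The windows with a match follow, 5′ to 3′ on the gene's strand, with the matched letters in capitals (in Lrrc8b the first match is AP-1 and the second kB). They lie at chr7:24462233-24462532 (plus strand) for Plaur, chr17:12119034-12119333 (plus strand) for Agpat4 and chr5:105415525-105415824 (plus strand) for Lrrc8b.
Plaur: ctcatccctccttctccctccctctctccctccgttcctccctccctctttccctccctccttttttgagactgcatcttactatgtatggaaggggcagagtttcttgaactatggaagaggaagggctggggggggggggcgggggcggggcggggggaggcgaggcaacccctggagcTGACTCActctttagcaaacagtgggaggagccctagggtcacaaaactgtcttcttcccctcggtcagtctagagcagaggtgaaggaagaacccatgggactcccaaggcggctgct
Agpat4: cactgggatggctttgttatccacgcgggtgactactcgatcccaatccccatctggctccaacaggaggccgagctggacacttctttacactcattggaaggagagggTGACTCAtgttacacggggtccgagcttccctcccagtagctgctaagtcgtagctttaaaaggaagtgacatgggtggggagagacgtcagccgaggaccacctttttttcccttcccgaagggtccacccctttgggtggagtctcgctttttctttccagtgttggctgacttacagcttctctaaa
Lrrc8b: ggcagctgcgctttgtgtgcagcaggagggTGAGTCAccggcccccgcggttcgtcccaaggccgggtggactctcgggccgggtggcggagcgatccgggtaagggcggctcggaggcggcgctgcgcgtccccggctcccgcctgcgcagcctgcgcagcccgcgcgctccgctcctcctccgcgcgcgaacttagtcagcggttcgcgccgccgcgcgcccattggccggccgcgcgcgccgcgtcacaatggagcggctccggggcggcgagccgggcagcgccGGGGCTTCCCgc
A match describes letters in a window of 6 genes and is not evidence of binding.

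Tmem88 is a membrane protein gene whose span (69210017 to 69211736) ends 279 bp from that of Kdm6b. The reference annotation places Kdm6b on the minus strand, so Tmem88 lies just past the 3′ end of Kdm6b. Tmem88 was also higher in chromatin RNA at 0.5 h of lipid A, though not in every library. In the Nfkb1 series at 0.5 h it had 0.130, 0.237 and 0.275 RPKM in Nfkb1-/- libraries, from 2, 11 and 13 reads, against 0.631, 1.27 and 1.33 RPKM in wild-type libraries, from 11, 67 and 59 reads. Every knockout library lay below every wild-type library. In the Nfkbiz and Bcl3 series Tmem88 reached 1 RPKM at 0.5 h only, so it passed the filter through the time at which it was high. Its differences from 0 h there are therefore descriptions without a test. In wild-type cells they were 1.23 and 1.36 at 0.5 h, and 0.14 and 0.22 at 1 h, when Kdm6b was still high. In replicate 1 of the Nfkbid wild type Tmem88 had 3.73 RPKM at 0 h and 3.13 RPKM at 0.5 h, with no increase. Replicates 2 and 3 rose from 0.502 to 1.34 RPKM and from 0.421 to 1.10 RPKM. In chromatin RNA of TNFa-treated cells Tmem88 had 0.336 RPKM at 0 h and 0.248 RPKM at 0.5 h, with no increase. At 30 min it had 1.43 RPKM in ERKi cells and 5.18 RPKM in DMSO cells. In polyA RNA Tmem88 was 4.34 and 3.74 RPKM at 0.5 and 1 h of lipid A, against 4.06 RPKM at 0 h, so the rise seen on chromatin was not seen there. Whether reads of Tmem88 belong to transcripts of Kdm6b was not tested.

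The other neighbours moved in other ways. Naa38, which overlaps Tmem88 by 156 bp, had 0.253, 0.169 and 0.124 RPKM in Nfkb1-/- libraries at 0.5 h, against 0.448, 0.0739 and 0.132 RPKM in wild-type libraries, with overlap. Chd3, a chromatin remodelling enzyme gene further along, had 1.46, 1.23 and 1.54 RPKM in Nfkb1-/- libraries at 1 h, against 1.41, 1.79 and 1.58 RPKM in wild-type libraries. At 1 h of lipid A Chd3 was called lower in the Bcl3 wild type (-1.01, limma, adjusted p 0.00192), where 26.2% of all genes were, and it was not called in the Nfkbiz (-0.60), Nfkb1 (-0.84) or Nfkbid (-0.80) wild type. Trappc1, a vesicle trafficking subunit, and Cntrob, a centriole protein gene, were called lower at 1 h in the Nfkbiz and Bcl3 wild types (-1.10 and -1.29 for Trappc1, -1.19 and -1.37 for Cntrob, limma, adjusted p at most 0.00928), where 18.7% and 26.2% of all genes were. On the other side Dnah2, an axonemal dynein gene 4614 bp away, was barely detected.

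**Figure D4:**
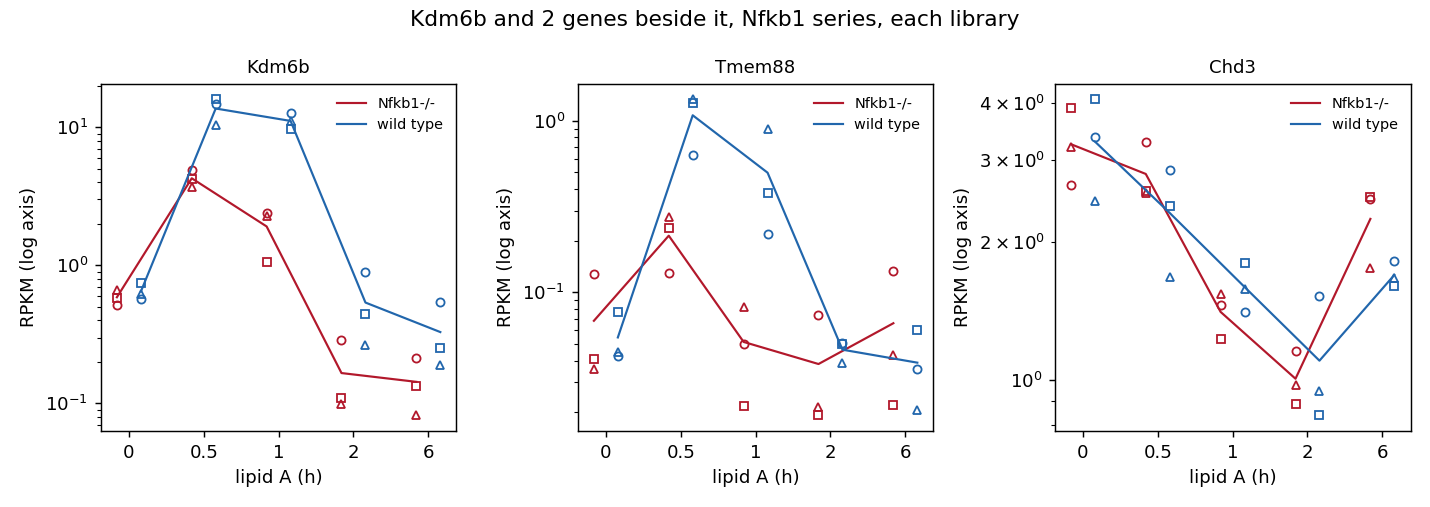
Kdm6b, Tmem88 and Chd3 in RPKM (log axes, which differ between panels) in the Nfkb1 series at 0, 0.5, 1, 2 and 6 h of lipid A, Nfkb1-/- in red to the left of wild type in blue; marks are libraries (circle, square and triangle for replicates 1, 2 and 3) and lines join means. Kdm6b and Tmem88 rise at 0.5 h and are lower in all 3 Nfkb1-/- libraries then, and Chd3 has no such rise.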

How the data were processed

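RNA was sequenced from mouse macrophages with a stranded Illumina TruSeq kit, per the labels' protocols. Per the submitters' processing notes HISAT2 and SAMtools were used with the build mm9; versions, counting and strand rules are not given in the sources used here. The authors deposited 1 table of RPKM values, and 0 of its columns lacked a sample. In chromatin libraries 96.39 to 100% of values worth 2 to 30 reads were within 0.02 of a whole read when RPKM was scaled by gene span, which gave each library's depth.

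Knockout series and J2 cells were fitted with limma 3.58.1 (R 4.3.3, trended) on log2(RPKM + 0.5), 1 mean per genotype and time, over genes that reached 1 RPKM in at least the number of libraries of 1 group (in J2 cells in any 1), with Benjamini-Hochberg adjustment over all genes tested. This log2 scale understates changes of low genes. The fits were tested on simulated data. Series with 1 library per condition got ratios, with exact 95% binomial intervals on reads where depth was recovered. Figures used Python 3.11.15.

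The gene, the lists (H3K27 and other JmjC demethylases, Polycomb repressive complex 2, H3K4 methyltransferase complexes, immediate-early, ERK feedback and alternative activation genes, genes within 100 kb) and cell type markers were chosen with earlier results of these data known. Named were Kdm6b, the 8 genes of highest Pearson correlation, its neighbours, Egr1 and called list members; reads of Tmem88, Malat1 and the targeted genes were added after their values were seen.

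Replicate numbers come from the labels. Same-numbered knockout and wild-type libraries deviated together at every time (correlation of residuals 0.61 to 0.92 in the Nfkb1, 0.45 to 0.73 in the Nfkbiz, 0.27 to 0.76 in the Bcl3 and 0.89 to 0.97 in the Nfkbid series), so the numbers pair the samples. Alternatives were other pseudocounts, filters, median centring, a replicate block and leaving out libraries.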

Additional observations from a re-analysis of the deposited data

How the results depend on the processing

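With a pseudocount of 0.1 the Kdm6b difference between Nfkb1-/- and wild type was -1.21 at 2 h and -0.77 at 6 h. The wild-type differences of the Nfkb1 series from 0 h were then 4.19, 3.91 and -0.88 at 0.5, 1 and 6 h, and the Bcl3-series wild type at 2 h became a call (-1.03, limma, adjusted p 0.0193). With a pseudocount of 1 the Nfkb1-series wild type stood at 3.14 and 2.87 at 0.5 and 1 h, and the Nfkbid-series wild type lost its 0.5 h call (3.04, limma, adjusted p 0.0504). With a filter of 3 RPKM it lost its 1 h call (2.93, limma, adjusted p 0.0544). With each library centred on its median gene, Nfkb1-/- against wild type was 0.045 at 0 h, -1.57 at 0.5 h and -2.30 at 1 h. The Nfkb1-series wild type was then 4.08, 3.75, 0.17 and -0.10 at 0.5, 1, 2 and 6 h, so its direction at 2 h depends on the scaling. Centred ratios to 0 h were 10.9, 30.6 and 7.28 in ERKi cells and 13.1, 62.3 and 31.0 in DMSO cells at 15, 30 and 60 min. They were 4.63 and 11.9 with TNFa and lipid A in IkBz OE cells and 4.44 and 8.67 in Control cells. Leaving out libraries in turn gave 3.20 to 3.49 for the Nfkb1-series wild type at 1 h, 3.21 to 3.84 and 2.23 to 4.06 for the Nfkbid-series wild type at 0.5 and 1 h, and -0.85 to -0.26 for Nfkbiz-/- against wild type at 1 h. Where this left 1 library in a group, that library is assumed to vary like the others. A replicate block changed no call of Kdm6b, for the series or at each time (for Nfkbiz-/- at 1 h the block over the series gave adjusted p 0.12, limma). Over all genes, the knockout comparisons of the 4 series made 430 calls, 739 with a pseudocount of 0.1 and 708 with the replicate block at each time. Their lipid A comparisons made 16332 calls, 10185 with a pseudocount of 1 and 8464 with the filter of 3 RPKM. The causes of these changes were not tested. Low counts limit the 2 and 6 h values most, and J2 fits had little power, as they rest on 2 pairs of libraries.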
